A study of Mus musculus with 6 samples.

Results

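Messenger RNA levels of 36 integrin and focal adhesion genes are described here in sorted basal cells of mouse mammary glands. Basal cells form the outer layer of the ducts and alveoli and include the myoepithelial cells, which contract to eject milk. The genes were taken by name from the families and not by a threshold on measured values, although with earlier results of these data known. They are 9 integrin alpha chains, 6 beta chains and 21 adaptor proteins, among 23337 genes counted. The knockout mice were homozygous for the knockout allele Vimtm1Cba (4 libraries, knockout 1 to 4), and the controls carried 2 wild-type alleles (Vimwt/wt, 2 libraries, wild type 1 and 2). Vim encodes vimentin, an intermediate filament protein. The allele is a germline one, so all cell types of the gland carry it and not the basal cells alone. All mice were on a mixed 129/Sv X C57BL/6 background and 15 weeks old, and each library came from cells pooled from 2 to 3 mice. Cells were sorted by flow cytometry, in 2 separate experiments, on absence of CD45 and CD31, low CD24 and high CD49f. Pools differ between libraries, so p-values measure the spread between pools and not between single mice. In fits with genotype as the only term, that spread also includes differences between the 2 experiments.

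Integrins are receptors made of 1 alpha and 1 beta chain that bind the extracellular matrix on the outside of the cell and, through adaptor proteins, the actin or keratin cytoskeleton on the inside. Talins and kindlins bind the tail of the beta chain and switch the receptor on, vinculin, filamin and alpha-actinins tie it to actin, and kinases such as FAK and Src pass on the signal. Basal cells sit on the laminin of the basement membrane, which they grip with the laminin receptors alpha3-beta1, alpha6-beta1 and alpha6-beta4, the last of these in hemidesmosomes that anchor keratin. Vimentin filaments are known to attach to some of these adhesions.

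Total counts ran from 25347967 to 31200622 per library, and log2 CPM over all genes correlated between libraries at 0.970 to 0.989. Vim itself was at 92.4, 105, 111 and 111 CPM (counts scaled by library size and TMM) in the knockout libraries, against 215 and 241 CPM in wild type, a log2 fold change of -1.12 (edgeR's quasi-likelihood test, SE 0.12, adjusted p = 0.019). The 8 basal markers summed to 12110.4 to 14273 CPM in knockout libraries and 13973 to 14028 CPM in wild type. The 10 luminal markers summed to 2334 to 2529 CPM in knockout and 2254 to 2392 CPM in wild type, and the groups overlapped for both sums. Of these, 3 of 10 luminal markers (Krt18, Cd24a and Esr1) and 1 of 8 basal markers (Cnn1) were higher in every knockout library, against 7.6% of all genes tested. Cd24a, the gene of the CD24 in the gate, averaged 212 ± 32.1 CPM in knockout and 147 ± 10.6 CPM in wild type (SD, n = 4 and 2; edgeR log2 fold change 0.52, SE 0.16, adjusted p = 0.356, 0.0585 with the experiment as a block). Endothelial markers differed between the groups: the 15 of them summed to 60.4 to 86.2 CPM in knockout against 110 and 268 CPM in wild type 2 and wild type 1, 13 of 15 were lower in every knockout library (against 8.57% of all genes tested), and none was at 0. The 8 fibroblast markers summed to 103 to 139 CPM in knockout and 137 to 156 CPM in wild type. Of these, 2 of 8 were lower in every knockout library. All 8 had an edgeR log2 fold change below 0 (median -0.34), as did 7299 of all 13925 genes tested. EdgeR called 0 of the 8 and DESeq2 called 1, which was lower. The 8 pericyte markers summed to 426 to 540.1 CPM in knockout and 298 to 308 CPM in wild type, with Higd1b at 0 in some. Mcam alone made most of this sum, at 387 to 497 CPM in knockout and 245 to 275 CPM in wild type, and was the 1 of 8 higher in every knockout library. The other 7 summed to 29.6 to 42.7 CPM in knockout and 32.7 to 53.3 CPM in wild type, and of the 7 pericyte markers tested 6 had a log2 fold change below 0. The 8 leukocyte markers summed to 18.2 to 31.8 CPM in knockout and 26.0 to 27.2 CPM in wild type, with Ptprc, Cd3e, Emr1 and Cd52 at 0 in at least 1 library. The part of these other cell types in the results on the 36 genes was not tested. In such sorted bulk samples, fewer cells of a type and less RNA per cell cannot be told apart.

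Among alpha chains, the pair of laminin-receptor chains led. Itga3, which pairs with beta1, averaged 826 ± 75.7 TPM (a level per exon length, comparable between genes) in knockout libraries and 1063 ± 86.0 TPM in wild type (SD, n = 4 and 2, as for all levels given with an error below). Itga6, which pairs with beta1 or beta4 and whose protein is the CD49f of the sorting gate, averaged 715 ± 40.3 TPM in knockout and 809.8 ± 81.3 TPM in wild type. Itga3 lay above Itga6 in 6 of 6 libraries, although the ranges over all libraries overlapped. These chains together made 70.1% ± 2.71 of the summed alpha-chain TPM in knockout and 70.9% ± 2.38 in wild type. Next came the fibronectin receptor chain Itga5 with 308 ± 9.29 TPM in knockout and 379 ± 72.1 TPM in wild type. The RGD-binding chain Itgav had 169.5 ± 19.5 TPM in knockout and 172 ± 27.7 TPM in wild type. Both of these were separated from their neighbours above without overlap. With them, 4 of the 9 chains made 91.9% ± 1.02 of the alpha total in knockout and 91.6% ± 1.15 in wild type.

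The other 5 alpha chains were lower. The collagen receptor chain Itga2 stood at 76.8 ± 19.7 TPM in knockout and 121 ± 55.3 TPM in wild type, and the tenascin and VCAM1 receptor chain Itga9 at 39.6 ± 7.26 TPM in knockout and 36.2 ± 4.89 TPM in wild type. Itga8, a nephronectin receptor chain, had 26.4 ± 4.99 TPM in knockout and 34.6 ± 2.90 TPM in wild type. Itga7, the laminin receptor chain of skeletal muscle, had 23.9 ± 4.58 TPM in knockout and 20.7 ± 5.09 TPM in wild type. From Itgav down to Itga7 each neighbour overlapped the next over the 6 libraries. Itga1, the other collagen receptor chain of the set, closed the order at 11.9 ± 1.15 TPM in knockout and 11.9 ± 0.593 TPM in wild type, below Itga7 without overlap.

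Itgb1, the common partner of most alpha chains, held most of the beta-chain RNA. It averaged 1062 ± 96.4 TPM in knockout and 1123 ± 303 TPM in wild type, or 71.8% ± 3.53 of the summed beta-chain TPM in knockout and 68.7% ± 10.9 in wild type. Itgb4, the hemidesmosome chain, followed with 265 ± 52.1 TPM in knockout and 365 ± 88.4 TPM in wild type. Itgb5, a vitronectin receptor chain that pairs with alphav, had 102 ± 6.20 TPM in knockout and 83.0 ± 23.7 TPM in wild type. These chains did not overlap with each other. The remaining partners of alphav were low and overlapped. Itgb8 had 22.9 ± 0.266 TPM in knockout and 17.2 ± 6.25 TPM in wild type. Itgb3 had 14.5 ± 1.11 TPM in knockout and 19.0 ± 1.12 TPM in wild type, and Itgb6 had 13.1 ± 3.13 TPM in knockout and 11.9 ± 0.984 TPM in wild type.

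Adaptor levels spread more widely, and the actin cross-linkers were at the top. Filamin A (Flna) had 1756 ± 93.7 TPM in knockout and 2098 ± 91.0 TPM in wild type. Alpha-actinin 1 (Actn1) had 1731 ± 100.3 TPM in knockout and 1839 ± 235 TPM in wild type, and alpha-actinin 4 (Actn4) 1364 ± 159 TPM in knockout and 1630.2 ± 0.456 TPM in wild type. These 3 genes made 57.1% ± 1.97 of the summed adaptor TPM in knockout and 60.1% ± 0.665 in wild type, and no other adaptor reached their range. The scaffold paxillin (Pxn), kindlin-2 (Fermt2), vinculin (Vcl), zyxin (Zyx), the Src substrate p130Cas (Bcar1), the tetraspanin Cd151 that binds laminin receptors, integrin-linked kinase (Ilk), alpha-parvin (Parva), the kinase Src, talin-1 (Tln1), kindlin-1 (Fermt1) and tensin-3 (Tns3) formed a middle group, with means between 142 and 499 TPM in knockout and between 106 and 453 TPM in wild type. Below them came tensin-1 (Tns1), focal adhesion kinase (Ptk2) and PINCH1 (Lims1), with means between 44.7 and 72.7 TPM in knockout and between 41.0 and 78.8 TPM in wild type, whose libraries overlapped only with those of Fermt1 in the middle group. The set holds a pair of paralogs each for the talins, PINCH proteins and parvins, and 1 gene of each of these pairs was low. Talin-2 (Tln2) had 10.4 ± 1.08 TPM in knockout and 9.45 ± 1.49 TPM in wild type, PINCH2 (Lims2) had 8.0 ± 1.48 TPM in knockout and 4.40 ± 0.284 TPM in wild type, and beta-parvin (Parvb) 0.475 ± 0.128 TPM in knockout and 2.56 ± 1.31 TPM in wild type.

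**Figure D1:**
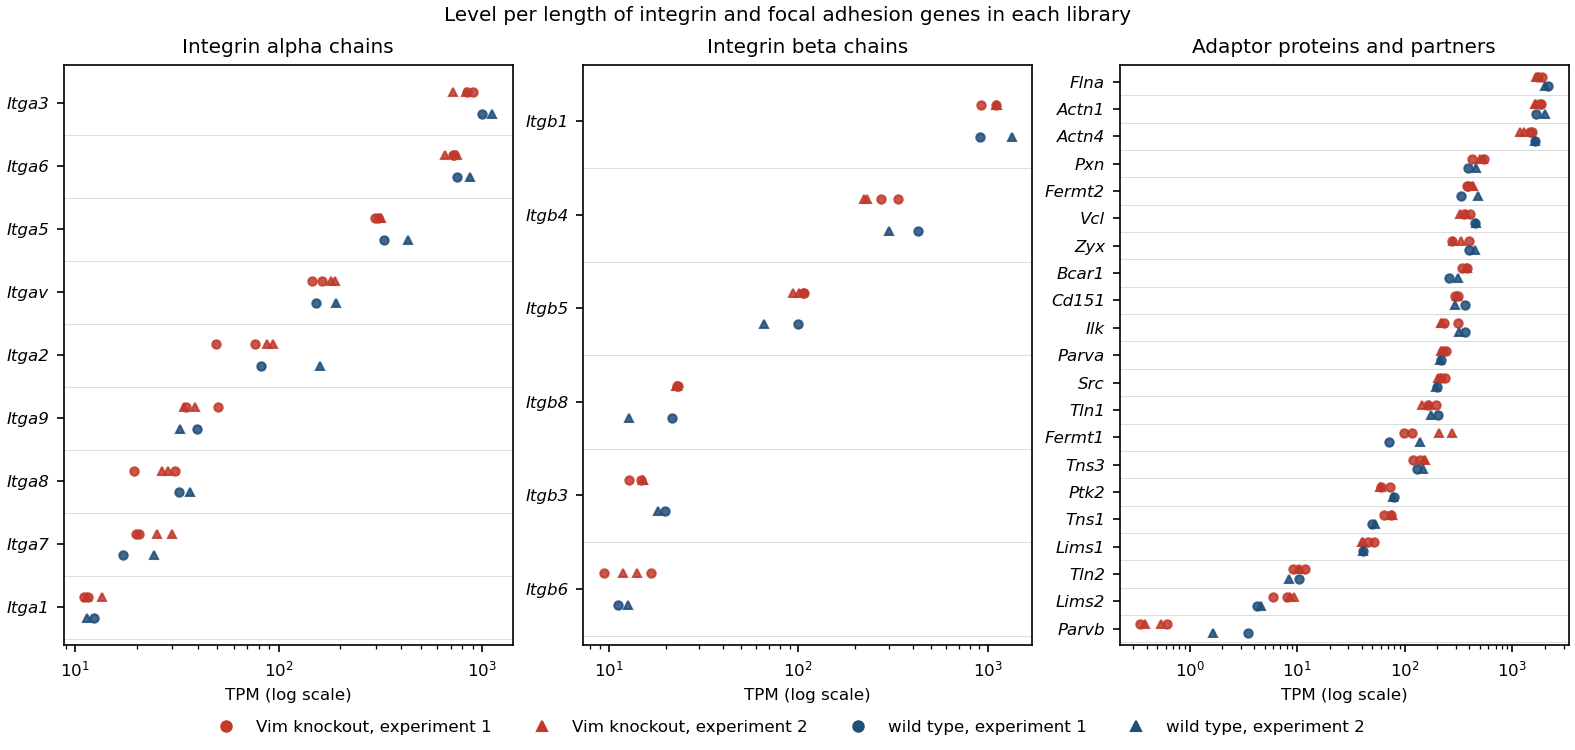
Level of each of the 36 genes in TPM (log axis), by role, with a point for every knockout and wild-type library. Itga3 and Itga6 lead the alpha chains, Itgb1 the beta chains, and Flna, Actn1 and Actn4 the adaptors, while Parvb is the lowest gene of the set.

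Differences between genotypes were small for most members. Many changed in size when a wild-type library was left out of the fit without the block. Without a term for the experiment, edgeR called 0 of the 36 genes at an adjusted p under 0.05, against 0.079% of the 13925 genes tested, and limma-voom also called 0 (0.0718% of all genes). At an unadjusted p under 0.05 it found 11 members (30.6%, against 8.57% of all genes tested): Itgb8, Lims2, Tns1 and Bcar1 were higher in knockout (4.48% of all genes were), and Itga3, Itgb3, Itgb4, Vcl, Ptk2, Ilk and Parvb were lower (4.09% of all genes were). Many members have high counts, and among the 27 with over 1000 counts in every library 7 (25.9%) had such a p, against 7.23% of genes as deeply counted. The log2 fold change was under 0.5 in size for 31 of 36 members (86.1%), against 85.3% of all genes. With the experiment as a block, edgeR called 3 members (8.33%, against 1.56% of all genes): Fermt1 and Tns1 rose (1.12% of all genes did) and Parvb fell (0.438% did). DESeq2 called Tns1 and Parvb (5.56%, against 1.88% of all genes). The CPM ranges of the groups did not overlap for 15 members (41.7%, against 16.2% of all genes), 6 higher in knockout (7.6% of all genes) and 9 lower (8.57%). Omissions of wild type 1 or of wild type 2 were also fitted without the block. In 25 of 36 members at least 1 of them moved the log2 fold change by over 1.5 times or turned its sign. No such share is given for all genes tested. Such an omission also unbalances the experiments. The ratio also counts members near 0, such as Itga1 (0.0035 with all libraries, 0.017 without wild type 1).

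**Figure D2:**
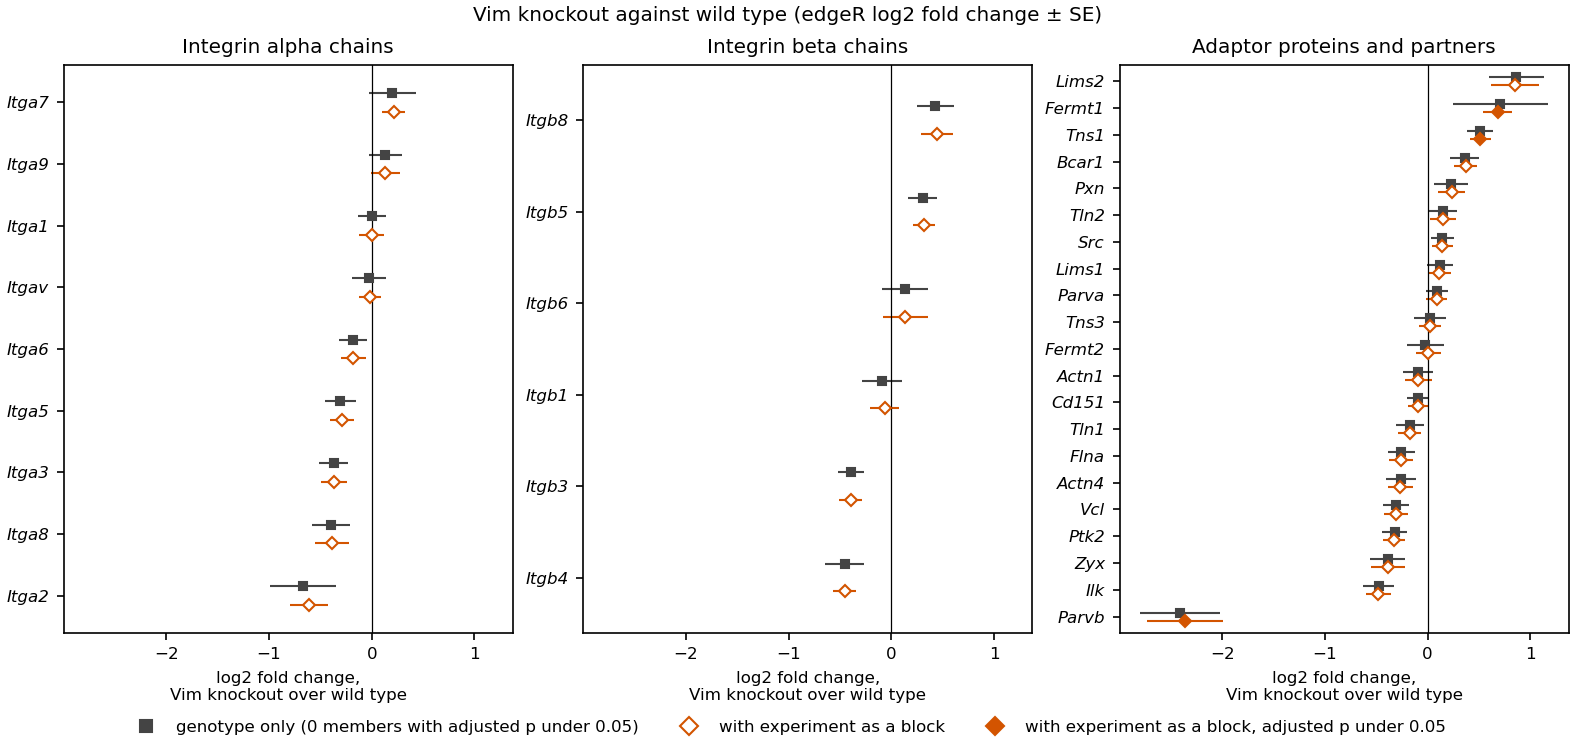
Log2 fold change of each member, knockout over wild type, with its standard error, from edgeR without and with the experiment as a block. Most points lie within 0.5 of 0, and Parvb, at -2.41 without the block, stands far below the other adaptors.

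The alpha chains had a median log2 fold change of -0.18 with 3 above 0 and 6 below, against a median of -0.01 for all genes tested, and none of the 9 was called in either fit. Itga3 had 1498, 1418, 1410.3 and 1243 CPM in the knockout libraries, against 1626 and 1971 CPM in wild type. All knockout libraries lay below both wild-type ones, with wild type 2 apart at the top, and the log2 fold change was -0.37 (SE 0.14, adjusted p = 0.51 by edgeR, 0.216 with the block), against -0.48 without wild type 1 and -0.22 without wild type 2. Itga8 was likewise below wild type in every knockout library, with 61.4, 38.8, 53.4 and 58.6 CPM against 62.9 and 76.6 CPM in wild type, with knockout 1 just under wild type 1. Its log2 fold change was -0.39 (edgeR, SE 0.19, adjusted p = 0.625), against -0.51 without wild type 1 and -0.24 without wild type 2. Itga8 lies 1.27 Mb from Vim on chromosome 2. Itga6, whose protein set the sorting gate, had 1046, 1047, 1104 and 986 CPM in knockout and 1058 and 1319 CPM in wild type, which overlapped. Its log2 fold change was -0.18 (edgeR, SE 0.13, adjusted p = 0.836), against -0.32 without wild type 1 and -0.02 without wild type 2.

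Itga2 showed the lowest alpha-chain fold change, and its size depended on wild type 2, more so without the block than with it. It had 111, 71.6, 129 and 140.1 CPM in knockout, against 116 and 244 CPM in wild type. Wild type 2 was far above all others, while wild type 1 lay inside the range of all knockout libraries. Within each experiment both knockout libraries lay below their wild type, with a mean log2 difference of -0.38 in experiment 1 and -0.86 in experiment 2. The log2 fold change was -0.67 (edgeR, SE 0.32, adjusted p = 0.633), and without wild type 2 it was -0.03, without wild type 1 -1.10. With the block it was -0.61 (edgeR, SE 0.18, adjusted p = 0.176), with -0.34 without wild type 2 and -0.84 without wild type 1. Among the rest, Itga5 had a log2 fold change of -0.30 (-0.52 without wild type 1, -0.03 without wild type 2), Itgav of -0.03, Itga1 of 0.00, Itga9 of 0.13 and Itga7 of 0.20, all with overlapping groups.

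Beta chains lay on both sides of 0, with a median log2 fold change of 0.02, 3 above 0 and 3 below, and none of the 6 called in either fit. Itgb4 had 711, 579.5, 495 and 485 CPM in knockout, against 882 and 674 CPM in wild type. Knockout 1 overlapped wild type 2, but within each experiment both knockout libraries lay below their wild type, and the mean log2 difference was -0.46 in experiment 1 and -0.46 in experiment 2. The log2 fold change was -0.45 (edgeR, SE 0.19, adjusted p = 0.55, 0.0794 with the block), against -0.23 without wild type 1. Genes of its hemidesmosome partners, Plec, Dst and Col17a1, had a median log2 fold change of 0.09, and 0 of 3 were called. Of these, 2 were above 0 and 1 below, at -0.30. The partner below 0 had an unadjusted p under 0.05 in edgeR, as did 4.09% of all genes tested in that direction. It was also lower than wild type in every knockout library, as were 8.57% of all genes tested.

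Itgb3, which binds vitronectin with alphav, had 25.5, 29.6, 30.4 and 31.1 CPM in knockout, against 38.4 and 38.1 CPM in wild type. The groups did not overlap and the wild-type pair was close together, with a log2 fold change of -0.39 (edgeR, SE 0.12, adjusted p = 0.382, 0.124 with the block). Itgb8, a receptor chain for latent TGF-beta, went the other way, with 24.7, 24.5, 24.7 and 24.9 CPM in knockout against 22.4 and 14.3 CPM in wild type. The knockout libraries were nearly equal and above both wild-type ones, of which wild type 2 was the low one, and the log2 fold change was 0.43 (edgeR, SE 0.18, adjusted p = 0.572), against 0.14 without wild type 2 and 0.81 without wild type 1. Itgb5 had a log2 fold change of 0.30 (0.58 without wild type 1, 0.087 without wild type 2), Itgb6 of 0.13 and Itgb1 of -0.09, and their groups overlapped.

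Adaptor proteins had a median log2 fold change of -0.02, with 10 above 0 and 11 below, and held all 3 members called with the block. The parvin, PINCH and Ilk genes of the ILK complex, which binds the beta1 tail and actin, differed in sign. Ilk had 199.6, 151, 142 and 149 CPM in knockout, against 228 and 218 CPM in wild type. Every knockout library was below wild type, knockout 1 the least so, and the log2 fold change was -0.48 (edgeR, SE 0.15, adjusted p = 0.382, 0.0857 with the block). Parva, the more abundant parvin of the set, had 345, 372, 344 and 342 CPM in knockout and 321 and 339.6 CPM in wild type. Its log2 fold change was 0.09 (edgeR, SE 0.11, adjusted p = 0.937). Lims1 had a log2 fold change of 0.12 (SE 0.13) with overlapping groups.

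Parvb was the member with the largest fold change, at low counts. It had 14, 20, 21 and 13 counts in knockout, against 142 and 57 counts in wild type, or 0.440, 0.790, 0.705 and 0.512 CPM in knockout against 4.32 and 2.19 CPM in wild type. No knockout library came near either wild-type one, and wild type 1 was the higher of its group. The log2 fold change was -2.41 (SE 0.39, adjusted p = 0.139 by edgeR), and Parvb fell by 2.36 in log2 with the block (edgeR, SE 0.37, adjusted p = 0.0158) and in DESeq2 (adjusted p = 0.000143). Omitting wild type 1 gave a log2 fold change of -1.82 with or without the block, and omitting wild type 2 gave -2.82 with it. These omissions cannot test the blocked call, because 1 experiment is then left with no wild type. Leaving out knockout 4 lost the blocked call (edgeR adjusted p = 0.052). Endothelial markers moved with it: their sum was 60.4, 86.2, 82.4 and 68.7 CPM in knockout, against 268 CPM in wild type 1 and 110 CPM in wild type 2, the same order of wild-type libraries as for Parvb. Pecam1, the gene of CD31, had 3.46, 7.35, 6.48 and 4.41 CPM in knockout against 30.4 and 12.1 CPM in wild type. The part of endothelial RNA in the Parvb result was not tested.

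Lims2, the lower of the PINCH genes, was higher in knockout, with 4.62, 3.48, 5.51 and 5.2 CPM against 2.37 and 2.81 CPM in wild type. All knockout libraries lay above both wild-type ones. The log2 fold change was 0.86 (edgeR, SE 0.27, adjusted p = 0.375, 0.113 with the block), and the ratio of Lims2 to Lims1 TPM was 0.182 ± 0.0481 in knockout and 0.107 ± 0.00641 in wild type.

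Of the kindlins, Fermt1 was called with the block and Fermt2 was not, and the difference between them was not tested. Fermt1, the kindlin of epithelia, had 210.4, 177, 377 and 516 CPM in knockout, against 126 and 265 CPM in wild type. The groups overlapped and both genotypes were higher in experiment 2 (knockout 3 and 4, wild type 2), but each knockout library lay above the wild type of its own experiment. Without the block the log2 fold change was 0.71 (edgeR, SE 0.47, adjusted p = 0.793; 0.29 without wild type 1 and 1.34 without wild type 2), and with it Fermt1 rose by 0.68 in log2 (edgeR, SE 0.14, adjusted p = 0.0487). In the blocked fit Fermt1 rose by 0.77 when wild type 1 was omitted and by 0.62 when wild type 2 was. These omissions cannot test the call, because 1 experiment is then left with no wild type. Leaving out knockout 4 lost the call (estimate 0.57, edgeR adjusted p = 0.124). Fermt2, the more widely expressed kindlin, had 424, 430.3, 489.8 and 485 CPM in knockout, against 360.0 and 569 CPM in wild type. Its wild-type libraries lay on either side of all knockout libraries, and the log2 fold change was -0.02 (edgeR, SE 0.18, adjusted p = 0.996). The ratio of Fermt1 to Fermt2 TPM was 0.423 ± 0.182 in knockout and 0.252 ± 0.0504 in wild type, and the groups overlapped, with knockout 2 at 0.254 below wild type 2 at 0.288.

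The promoters of the pair also differ in sequence. They are shown because only Fermt1 was called of these paralogs, with 250 bases before and 50 after the RefSeq start (GRCm38.p6). Capitals mark matches to the SP1 box GGGCGG on either strand and, in Fermt2, to the CArG box by which SRF binds genes of the actin cytoskeleton. Fermt1 lies at chr2:132945987-132946286 and Fermt2 at chr14:45530016-45530315, both on the minus strand and printed 5′ to 3′.
Fermt1: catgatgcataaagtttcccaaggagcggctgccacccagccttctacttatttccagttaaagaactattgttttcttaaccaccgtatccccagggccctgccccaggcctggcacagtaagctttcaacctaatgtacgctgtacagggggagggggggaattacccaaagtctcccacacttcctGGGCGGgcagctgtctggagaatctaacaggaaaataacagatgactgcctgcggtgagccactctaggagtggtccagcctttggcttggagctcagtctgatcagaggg
Fermt2: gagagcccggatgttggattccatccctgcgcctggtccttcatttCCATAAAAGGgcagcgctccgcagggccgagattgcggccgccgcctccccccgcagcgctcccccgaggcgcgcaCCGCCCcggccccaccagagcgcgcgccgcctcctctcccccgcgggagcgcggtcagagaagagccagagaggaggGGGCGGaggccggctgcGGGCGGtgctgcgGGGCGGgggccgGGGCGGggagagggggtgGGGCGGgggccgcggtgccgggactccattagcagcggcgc
Fermt1 held 1 SP1 match, 61 bases before the start, and Fermt2 held 6 SP1 matches and 1 CArG match, which lay 204 bases before the start.

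Tns1, which links the beta-chain tail to actin in fibrillar adhesions, was higher in knockout. It had 219, 256, 264 and 269 CPM in knockout, against 164 and 190.0 CPM in wild type. No knockout library overlapped wild type, and the difference was alike in both experiments, 0.53 in experiment 1 and 0.49 in experiment 2 on the log2 scale. The log2 fold change was 0.51 (edgeR, SE 0.13, adjusted p = 0.273), and Tns1 rose by the same 0.51 with the block (edgeR, SE 0.10, adjusted p = 0.0421) and passed in DESeq2 (adjusted p = 0.0345). The blocked estimate for Tns1 stayed at 0.51 when wild type 1 was omitted and came to 0.54 when wild type 2 was. Neither omission can test the call, because 1 experiment is then left with no wild type. Among omissions of knockout libraries, the call was lost for knockout 3 (estimate 0.52, edgeR adjusted p = 0.102) and knockout 4 (0.51, 0.159). Tns3, the related tensin, had 309, 358, 396 and 413 CPM in knockout and 328 and 399 CPM in wild type, with a log2 fold change of 0.02 (SE 0.15).

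**Figure D3:**
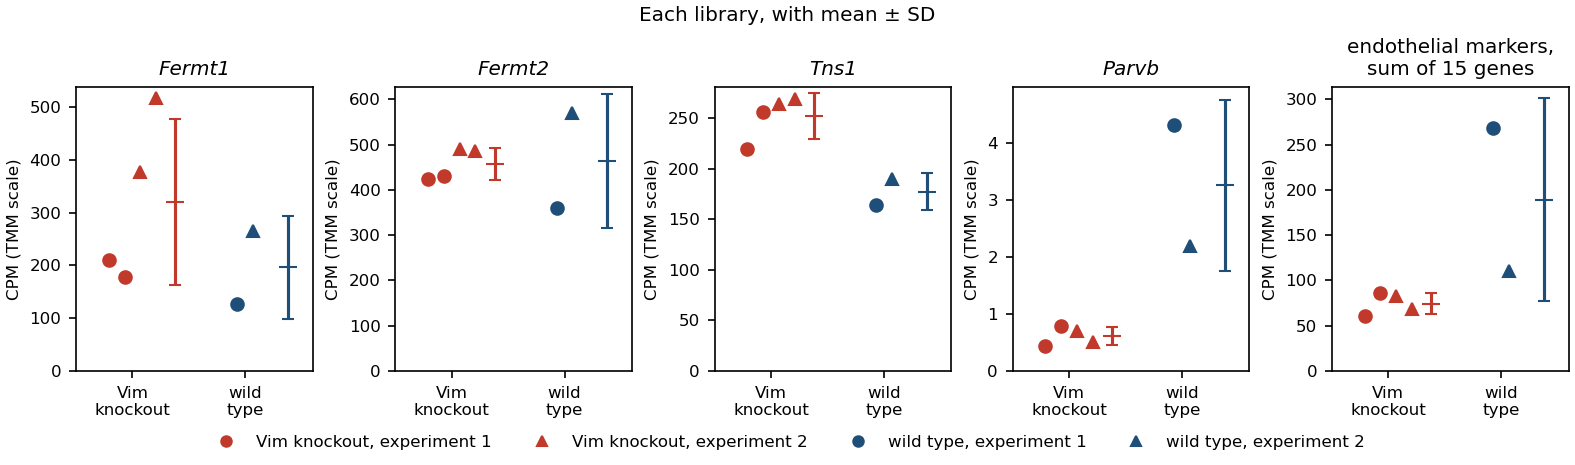
CPM in every library, knockout left of wild type, with mean and SD, for Fermt1, Fermt2, Tns1, Parvb and the sum of the 15 endothelial markers. Tns1 and Parvb do not overlap between genotypes, while Fermt1 does, with experiment 2 above experiment 1 in both genotypes.

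The promoters of Tns1 and Parvb, members called in opposite directions, are given in the same way, Tns1 at chr1:74124499-74124798 on the minus strand and Parvb at chr15:84231793-84232092 on the plus strand.
Tns1: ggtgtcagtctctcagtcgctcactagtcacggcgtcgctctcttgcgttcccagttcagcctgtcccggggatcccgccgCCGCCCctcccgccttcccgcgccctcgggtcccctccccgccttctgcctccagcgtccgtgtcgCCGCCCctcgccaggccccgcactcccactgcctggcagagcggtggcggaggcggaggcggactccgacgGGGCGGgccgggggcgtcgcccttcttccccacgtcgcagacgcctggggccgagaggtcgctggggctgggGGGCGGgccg
Parvb: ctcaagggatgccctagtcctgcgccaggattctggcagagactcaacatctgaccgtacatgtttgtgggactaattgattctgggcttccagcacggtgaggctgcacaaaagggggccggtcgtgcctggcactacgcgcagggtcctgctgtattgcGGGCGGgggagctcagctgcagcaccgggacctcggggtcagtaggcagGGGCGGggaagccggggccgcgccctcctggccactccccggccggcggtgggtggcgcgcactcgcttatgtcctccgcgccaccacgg
Tns1 held 4 SP1 matches and Parvb 2, and neither held a CArG box, a TEAD motif (GGAATG) or an AP-1 motif (TGANTCA). A window within 200 bases of the gene's 5′ end was found for 26 members. The nearest such window was used for each of them. An SP1 box was present in 20 of 26 windows (76.9%), against 35.6% of all 32817 windows in the table. Those 32817 windows were not limited to a single start per gene or to genes tested here, so these shares and those below compare unlike sets. TEAD matches were in 4 (15.4%, against 14.7%), AP-1 matches in 2 (7.69%, against 7.81%) and CArG boxes in 2, Vcl and Fermt2 (7.69%, against 1.63%), and a match is a run of letters and not a shown binding site.

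Among other adaptors that bind actin or its partners, none was called. Vcl had 733, 637, 681 and 611 CPM in knockout, against 783 and 865 CPM in wild type, all below wild type, with a log2 fold change of -0.31 (edgeR, SE 0.13, adjusted p = 0.549). Flna had 4943, 5443, 5065 and 4939 CPM in knockout, against 6036 and 6137 CPM in wild type, with a log2 fold change of -0.26 (edgeR, SE 0.13, adjusted p = 0.681). Both groups were separate for these genes and for Actn4, whose log2 fold change was -0.26. Zyx, with -0.39, Tln1, with -0.17, and Actn1, with -0.09, had overlapping groups.

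The signalling adaptors were split. Ptk2 had 126, 104, 102 and 106 CPM in knockout, against 134 and 139.7 CPM in wild type, all below wild type, with a log2 fold change of -0.32 (edgeR, SE 0.12, adjusted p = 0.488). Bcar1, a docking protein that FAK and Src phosphorylate, had 386, 431, 421 and 438 CPM in knockout, against 285 and 368 CPM in wild type, all above wild type, with a log2 fold change of 0.36 (edgeR, SE 0.14, adjusted p = 0.512), against 0.20 without wild type 1 and 0.56 without wild type 2. Src was also above wild type in every knockout library, with a log2 fold change of 0.14. Pxn had a log2 fold change of 0.23, Tln2 of 0.15 and Cd151 of -0.09, and their groups overlapped.

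The same sign in both experiments was seen for 29 of the 36 members. The share over all genes tested is not given, so this count only describes the members. Experiment 1 set knockout 1 and 2 against wild type 1, and experiment 2 set knockout 3 and 4 against wild type 2, so each within-experiment value rests on a single wild-type library. The median log2 difference of the alpha chains was -0.08 in experiment 1 and -0.34 in experiment 2, that of the beta chains 0.14 and -0.15, and that of the adaptors 0.03 and -0.06. The sign differed for Itga1, Itgav, Itgb1, Lims1, Fermt2, Actn1 and Cd151, among which Itgb1 had 0.19 in experiment 1 and -0.31 in experiment 2. Among members of the same sign, Itga5 had -0.08 in experiment 1 and -0.49 in experiment 2, and Itgb8 had 0.14 in experiment 1 and 0.79 in experiment 2. The interaction of genotype and experiment was called for 0 members (0% of all genes) in edgeR, and 3 members, Itgb8, Fermt2 and Actn1, had an unadjusted p under 0.05 (8.33%, against 4.21% of all genes).

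**Figure D4:**
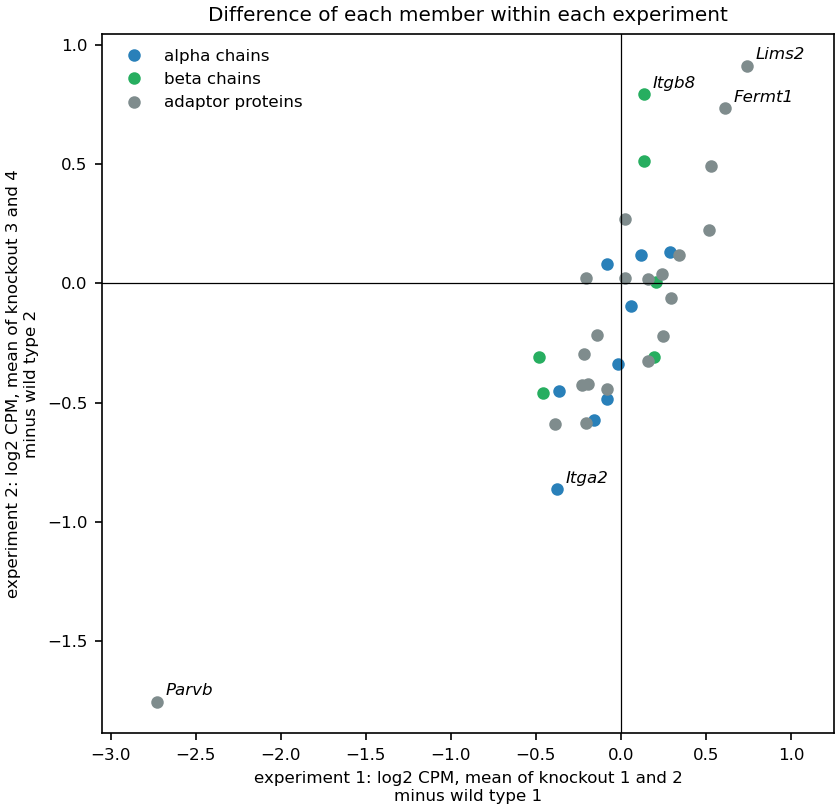
Mean log2 CPM difference, knockout minus wild type, within experiment 1 (horizontal axis) and experiment 2 (vertical axis), with a point for each of the 36 members coloured by role. Of these, 29 lie in the quadrants where both experiments have the same sign.

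Other genes of adhesion plaques were centred near 0. Of 68 listed, 67 were in the files and 65 were tested, with a median log2 fold change of -0.02, 31 above 0 and 34 below. None was called without the block (7 higher and 5 lower at an unadjusted p under 0.05 in edgeR), and with it 5 rose and 1 fell, against 1.12% and 0.438% of all genes tested. Nedd9, a relative of Bcar1, averaged 380.4 ± 77.8 CPM in knockout and 255 ± 54.3 CPM in wild type, and rose by 0.57 in log2 (edgeR, SE 0.10, adjusted p = 0.0249 with the block, 0.493 without). Sdc4, a heparan sulfate co-receptor for fibronectin, averaged 1025 ± 146 CPM in knockout and 678 ± 105 CPM in wild type, and rose by 0.60 (edgeR, SE 0.12, adjusted p = 0.0415 with the block, 0.343 without). Of the Ena/VASP actin regulators, Enah rose by 0.63 (edgeR, SE 0.12, adjusted p = 0.0362 with the block, 0.379 without) and Vasp fell by 0.53 (SE 0.11, 0.049 with the block, 0.236 without). The kinase Pak1 rose by 0.56 (edgeR, SE 0.11, adjusted p = 0.0336 with the block, 0.418 without). The adaptor Sorbs2 rose by 1.19 (edgeR, SE 0.22, adjusted p = 0.0322 with the block, 0.181 without). DESeq2, without the block, called 2 plaque genes higher and 1 lower, against 1.88% of all genes tested in either direction. Sorbs2 (DESeq2 adjusted p = 0.00033) and Vasp (0.0205) were among them, and Nedd9, Sdc4, Enah and Pak1 were not.

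Among 33 ligands of integrins, the median log2 fold change was -0.00, with 16 above 0 and 17 below. With the block 1 rose and 1 fell, against 1.12% and 0.438% of all genes tested. Fibronectin (Fn1), the ligand of alpha5-beta1 and of alphav integrins, had 164, 147, 313 and 203 CPM in knockout, against 47.1 and 69.4 CPM in wild type. Every knockout library was above both wild-type ones, and Fn1 rose by 1.81 in log2 with the block (edgeR, SE 0.18, adjusted p = 0.00282, 0.172 without the block). Nid1, the basement membrane protein nidogen-1, had 39.0, 31.9, 45.5 and 41.6 CPM in knockout, against 59.0 and 58.6 CPM in wild type, and fell by 0.58 (edgeR, SE 0.12, adjusted p = 0.0463 with the block, 0.271 without). DESeq2, without the block, called 1 ligand higher and 1 lower, against 1.88% of all genes tested in either direction. It called Fn1 (adjusted p = 1.4e-06) and did not call Nid1 (0.075). Fibroblasts and endothelial cells also make both proteins. As given above, the endothelial marker sum was lower in every knockout library. The fibroblast sum overlapped between groups, although all 8 of its markers had a log2 fold change below 0. The pericyte sum was higher in every knockout library through Mcam, while the sum of the other 7 pericyte markers overlapped. The part of these cells was not tested. The calls with the block on these 8 plaque and ligand genes varied with the knockout library left out. Omitting knockout 1 left 8, knockout 2 left 6, knockout 3 left 3 and knockout 4 left 1. Omitting a wild-type library cannot test these calls, because 1 experiment is then left with no wild type. The blocked estimate for Fn1 was 1.91 when wild type 1 was omitted and 1.73 when wild type 2 was. Of 12 further integrin chains, among them those of leukocytes, 7 were tested, with a median log2 fold change of -0.18. EdgeR called 0 of these with or without the block. Among them, Itga4 passed the filter on low counts only through the knockout libraries, so no p-value is given for it.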

How the data were processed

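Polyadenylated RNA of 6 libraries was sequenced with a stranded kit, per the labels' protocols. The deposited values are unnormalized read counts. The authors counted over mm10 exons with featureCounts 1.5.1, reverse-stranded (option 2), per the file headers. Reads in several genes or places were not counted, per the same headers. Per the submitters' processing notes, bcl2fastq 2.17, STAR 2.5.2b (alignment) and Subread 1.5.1 were used. Counting error is small at these totals except for Parvb and Lims2, the members with under 100 counts in some library.

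Genes were kept with filterByExpr (13925 of 23337, all 36 members among them), scaled by TMM and tested with edgeR 4.0.16 in R 4.3.3 (glmQLFit, robust, glmQLFTest, 2-sided) with genotype as the only term. P-values were adjusted by Benjamini-Hochberg over all genes tested, and an adjusted p under 0.05 was a call. TPM was computed from counts and the exon lengths in the files. List members are described by counts and medians, with no test of a list. Alternatives were the experiment as a block, DESeq2 1.42.0, limma-voom 3.58.1, RLE scaling, other filters and each library left out. The scripts were tested on simulated data. A further leukocyte marker is not reported here.

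The experiment of each library came from the day code that each deposited file carries in its name, since the labels state 2 experiments but not which library belongs to which. Every wild-type and knockout pair of the same experiment deviated together from its group means (r of 0.251 to 0.414), so the blocked fit is given beside a result where it changes the call. With only 2 wild-type libraries, whose deviations mirror each other, pairs of other experiments have the opposite r by construction. The members, the lists and the rule to name every member and each called gene of the other adhesion lists were chosen with earlier results of these data known.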

Additional observations from a re-analysis of the deposited data

Results flagged for a closer look

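Integrin-linked kinase (Ilk) in knockout 1 stood apart from the other knockout libraries, at 199.6 CPM against 151, 142 and 149 CPM, and was nearer to wild type at 228 and 218 CPM. Alpha-parvin (Parva) in knockout 2 stood apart at 372 CPM, against 345, 344 and 342 CPM in the other knockout libraries and 321 and 339.6 CPM in wild type. In each case the gap to the nearest library, as a share of the range of the group, was over Dixon's critical value for 4 samples. Chance gives such a gap in about 1 of 20 groups, and 2 of 36 were found.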

How the results depend on the processing

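Over all genes, edgeR called 11, against 217 with the replicate block by experiment, 262 by DESeq2, 7 among genes whose mean log2 CPM was 1 or more, 3 to 15 with each library left out in turn and 4 to 940 with the block and each library left out. Alpha chains kept a median log2 fold change below 0 in all settings (-0.18, from -0.32 to -0.015 with a library left out), and 0 to 2 of 9 were called with the block and a library left out, against 0 to 1 of 6 beta chains. The beta-chain median ranged from -0.13 to 0.14 with a library left out, against 0.02. The adaptor median, -0.02, was 0.01 with the block, -0.083 with the block by title number (knockout 3 and 4 left out) and -0.094 to 0.11 with a library left out. Adaptors called were 3 with the block, 2 by DESeq2 and 0 to 6 with the block and a library left out. Title numbers do not pair the libraries (r of 0.316 for number 1 and -0.286 for number 2). Of 36 members, 26 kept their sign in all settings. Reversals outside omissions were Itga1 (-0.00012 with the block, -0.00071 by voom and -0.088 by title number), Itga7 (-0.021 by title number), Fermt2 (0.0059 with the block and 0.0082 by voom) and Tns3 (-0.12 by title number). With a library left out, ranges crossed 0 for Itga1 (-0.080 to 0.10), Itga7 (-0.060 to 0.54), Itgav (-0.21 to 0.21), Itgb1 (-0.37 to 0.28), Itgb6 (-0.063 to 0.29), Fermt2 (-0.30 to 0.35), Tns3 (-0.094 to 0.17), Actn1 (-0.31 to 0.16), Cd151 (-0.20 to 0.038) and Lims1 (-0.044 to 0.30). The highest counts with the block came without knockout 1 and the lowest count over all genes without wild type 1. Where 1 wild-type library remained, it was assumed to vary like the knockout libraries. With the block, 1 experiment then lacked a comparison of genotypes, so a lost call cannot show dependence on the library left out. With 2 wild-type libraries, 1 for each experiment, the calls with the block rest on a single wild-type library within each experiment. The cause of these changes was not tested.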

Other observations

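The following integrin chains were chosen after their values were seen. Itga11, a collagen receptor chain best known from fibroblasts, had 19.2, 9.05, 17.1 and 38.2 CPM in knockout, against 12.3 and 32.3 CPM in wild type, with wild type 2 and knockout 4, both of experiment 2, at the top. Itga2b, the platelet chain that pairs with beta3, had 15.8, 16.0, 29.1 and 40.7 CPM in knockout, against 21.0 and 26.6 CPM in wild type, so that experiment 2 was higher in both genotypes. Itga4, the alpha4 chain known from leukocytes, had 20, 7, 19 and 9 counts in the knockout libraries, against 1 and 1 in wild type. It passed the filter on low counts only through the knockout libraries, so its direction is a description and no test is given. The level of Itga4 was 0.474 ± 0.186 CPM in knockout and 0.0345 ± 0.00571 CPM in wild type (SD, n = 4 and 2).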
